A study of Mus musculus with 6 samples.

Results

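The kappa and lambda light chain genes of mouse peritoneal B-1a and B-1b cells are described here from bulk RNA sequencing. The members were taken by name, as every gene whose symbol starts with Igkv, Igkj, Igkc, Iglv, Iglj or Iglc. They are 114 of the 7834 gene names in the table and 136 of its 13747 transcript rows. Of these genes 102 are V genes (99 kappa, 3 lambda), 7 are J genes (5 kappa, 2 lambda) and 5 are constant region genes (Igkc and 4 Iglc genes). The study compared B-1a with B-1b cells. B-1 cells are innate-like B cells that make natural IgM, and CD5 on the cell surface marks the B-1a subset and is lacking on the B-1b subset. Both were sorted by flow cytometry from the peritoneal cavity (PerC) of untreated wild-type (WT) male C57BL/6 mice, and polyadenylated RNA was sequenced. The labels give no age for these mice and do not say whether animals were pooled. The labels list 3 replicates in each group, but in all 136 light chain rows B-1b replicate 3 repeated B-1b replicate 1, and B-1a replicate 3 was the mean of B-1a replicates 1 and 2. The comparison therefore rests on 2 libraries per group, and because nothing says that these came from separate animals, p-values measure only the spread between these libraries.

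An antibody light chain is made from a V gene that recombination joins to a J gene, and the transcript is then spliced to a constant region. A B cell usually expresses light chains of 1 kind, kappa or lambda, and kappa predominates in mice. In B-1 cells particular light chains recur with particular heavy chains. Igkv4-91 is known to pair with heavy chains of VH12 and Igkv14-126 with those of VH11 in antibodies that bind phosphatidylcholine, a membrane lipid, and Igkv7-33 is known to pair with the heavy chain V gene of the T15 antibodies to phosphorylcholine.

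The last 280 germline coding bases of Igkv4-91 and Igkv14-126 are shown because among the V genes these had the 2 largest differences in mean share in favour of B-1b cells. Sequences are those of GENCODE M21 transcripts (build GRCm38), written 5′ to 3′ on the coding strand. Capitals mark the germline bases after the last in-frame cysteine codon, which begin the third hypervariable loop and to which the J gene is joined.
Igkv4-91: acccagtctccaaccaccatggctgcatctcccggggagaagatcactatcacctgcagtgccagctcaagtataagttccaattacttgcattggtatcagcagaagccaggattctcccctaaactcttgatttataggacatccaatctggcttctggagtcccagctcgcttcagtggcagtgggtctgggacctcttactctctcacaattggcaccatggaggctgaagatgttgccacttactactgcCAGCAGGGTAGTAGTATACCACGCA
Igkv14-126: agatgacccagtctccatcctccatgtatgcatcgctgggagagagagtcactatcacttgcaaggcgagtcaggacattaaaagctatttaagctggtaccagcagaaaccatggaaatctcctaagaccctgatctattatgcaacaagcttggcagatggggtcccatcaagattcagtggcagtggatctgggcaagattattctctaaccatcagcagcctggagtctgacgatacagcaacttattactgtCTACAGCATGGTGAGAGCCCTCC
Igkv4-91 lies on the minus strand of chromosome 6 at chr6:68768555-68769103, and Igkv14-126 on the plus strand at chr6:67896172-67896642. The most similar V gene in the annotation was 88.0% identical to Igkv4-91 (Igkv4-60) and 91.5% identical to Igkv14-126 (Igkv14-111). For comparison, the last 60 coding bases are given, with the same marking, for 7 V genes with lower values in both B-1b libraries.
Igkv6-23: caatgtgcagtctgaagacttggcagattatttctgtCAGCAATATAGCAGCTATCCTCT
Igkv6-15: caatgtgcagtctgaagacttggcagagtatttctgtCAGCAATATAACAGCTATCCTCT
Igkv6-25: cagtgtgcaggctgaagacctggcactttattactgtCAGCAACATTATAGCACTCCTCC
Igkv13-85: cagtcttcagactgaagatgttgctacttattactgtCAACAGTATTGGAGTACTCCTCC
Igkv19-93: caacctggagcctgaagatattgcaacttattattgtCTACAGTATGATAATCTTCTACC
Igkv14-100: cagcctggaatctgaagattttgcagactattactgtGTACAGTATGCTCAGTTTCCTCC
Iglv3: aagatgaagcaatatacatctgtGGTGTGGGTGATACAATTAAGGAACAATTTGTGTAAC
Close copies were frequent among these genes: the median identity of a V gene to its nearest V gene was 95.1%, 51 of the 102 V genes had a neighbour at 95% identity or more, and 17 had one at 97% or more. How the authors' counting shared reads between such copies is not given in the sources used here.

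Values were read as FPKM (fragments scaled by transcript length and by the size of the library), so levels of different genes can be set side by side per length. The J genes, at 38 or 39 bases, are an exception, because scaling by so short a length gives uncertain values. The FPKM of a library summed to between 324330 and 366992. Sequencing depth cannot be read from these values, and the number of libraries limits the precision. The B cell genes Cd79a and Cd79b were at 1077 to 2219 FPKM in every library. Cd5, which defines the B-1a sort, was below 1 FPKM in all 4 libraries (0.446 and 0.757 in B-1a, 0.895 and 0.737 in B-1b), so its RNA did not set the groups apart. Of the 4 other B-1 markers in the table, Bhlhe41 (0.775 and 1.23 against 4.87 and 2.68 FPKM), Itgam (17.6 and 33.4 against 56.7 and 48.0 FPKM) and Plscr1 (33.0 and 44.2 against 56.5 and 56.8 FPKM) were higher in both B-1b libraries, with an unadjusted limma p below 0.05, and Spn overlapped. Over all genes tested 25.8% were higher in that sense, 17.3% were lower, and 5.39% were higher and 4.27% lower at that p. Itgam is also a gene of macrophages, whose markers are given below, and the source of its RNA was not tested. Of 5 B-2 markers Fcer2a was higher, Cd55 and Ighd were lower and 2 overlapped, and Ighd, the IgD constant region, was at 436 and 330 against 214 and 241 FPKM (unadjusted limma p 0.0239). With limma 0 genes of either list had an FDR below 0.05. Ighm, the IgM heavy chain constant region, which B-1 cells of either kind carry on their surface, had 32.5 and 38.7 FPKM under the B-1a label but 2585 and 2781 FPKM under the B-1b label. Antibodies to phosphatidylcholine of the VH11 and VH12 kind are known chiefly from B-1a cells, whereas their light chain genes Igkv14-126 and Igkv4-91 were higher in both libraries with the B-1b label. B-1a and B-1b stand here for the groups as labelled, and whether these values bear on the labels was not tested. T cell markers summed to 9.62 to 13.2 FPKM over 5 of 8 listed genes. Macrophage markers, 9 of 10 listed genes, summed to 4779 and 3646 FPKM in the B-1a and 4461 and 7557 FPKM in the B-1b libraries, with no defining marker at 0 in all libraries. Of these 9, 5 were higher in both B-1b libraries than in both B-1a libraries, where 25.8% of all genes tested were. Plasma cell markers, 7 of 8 listed genes, summed to 398 and 413 FPKM in the B-1a and 272 and 405 FPKM in the B-1b libraries. Among the 6 of them tested, Irf4, Mzb1 and Slamf7 were lower and Xbp1 was higher in both B-1b libraries, where 17.3% of all genes were lower. Mzb1, which helps to assemble antibodies, was at 261 and 281 FPKM against 137 and 240 FPKM (limma FDR 0.645). The part of these marker lists in the light chain results was not tested.

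Light chain RNA as a whole was lower in B-1b than in B-1a cells in each pair of libraries. The members summed to 25922 and 22709.9 FPKM in the B-1a libraries and to 18465 and 20856 FPKM in the B-1b libraries. As a percentage of all FPKM this was 7.49 and 6.58% in B-1a cells and 5.69 and 5.68% in B-1b cells, a ratio of 0.808 between the group means. In bulk samples, fewer cells that express a gene and less RNA per cell cannot be told apart. The division within the sum was similar in the groups: V genes held 42.6 to 45.4%, constant regions 49.9 to 52.2% and J genes 3.75 to 5.36% of it over the 4 libraries. The groups did not overlap in the sum, but an exact two-sided permutation test of 2 against 2 libraries cannot give a p below 0.333, and it gave 0.333 here.

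Gene by gene, light chain genes leaned to lower values in B-1b cells, and no single gene passed the test over all genes. Of the 114 members, 109 passed the filter of at least 1 FPKM in at least 2 libraries. With limma, 0 of these 109 had a Benjamini-Hochberg adjusted p (FDR) below 0.05, against 0.198% of the 7557 genes tested (0.159% higher and 0.0397% lower in B-1b cells). The smallest FDR of a member was 0.173. At an unadjusted limma p below 0.05 there were 38 members beside 9.66% of all genes. Of the 38, 4 were higher and 34 lower in B-1b cells, where 5.39% of all genes were higher and 4.27% were lower at that level. The 38 were 18 without B-1a replicate 1, 22 with no sharing of the spread between genes and 23 with libraries scaled to equal light chain sums. Counting all 6 columns as libraries, although 2 of them derive from the others, limma put 5 members higher and 43 lower at an FDR below 0.05, beside 9.77% and 6.89% of all genes (16.7% together). The fold change was below 0 for 90 members and above 0 for 19, with a median log2 fold change of -0.49 on the log2(FPKM + 1) scale beside 0.05 over all genes. In simulated data for this comparison the test recovered 0% of genes changed by 1 on the log2 scale, 63% of those changed by 2 and 82% of those changed by 4, so changes of the size seen for most members could not be called with 2 libraries per group.

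Without a test, the libraries of the groups were apart for most members. In both B-1b libraries 8 members were higher than in both B-1a libraries and 62 were lower, while 44 overlapped. Over all genes tested, 25.8% were higher and 17.3% lower in that sense. Among V genes 6 were higher, 55 lower and 41 overlapped. When each V gene was taken as a share of the light chain sum, 12 V genes were higher in B-1b cells, 40 were lower and 50 overlapped. Dividing all genes by the light chain sum put 50.6% of them higher and 6.74% lower in B-1b cells, because that sum was itself lower there. The split also depended on the denominator: within the V sum without Igkv4-91 and Igkv14-126, a denominator chosen after seeing the data, 26 of the 100 remaining V genes were higher, 24 were lower and 50 overlapped.

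**Figure D1:**
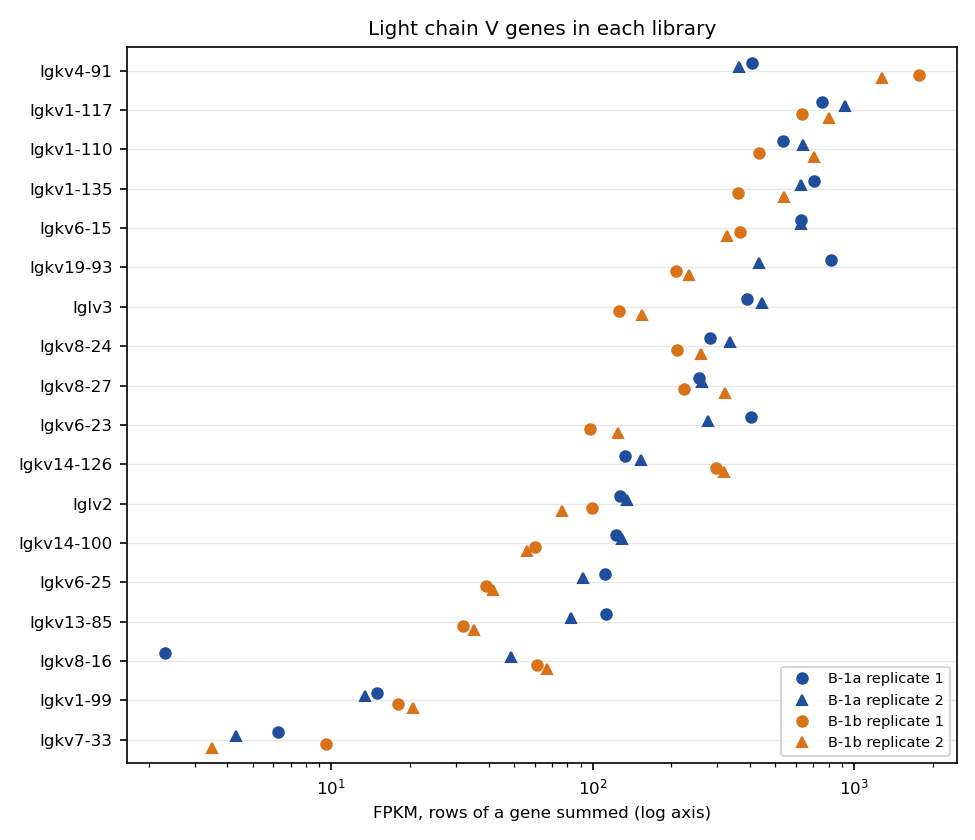
FPKM on a log axis of the named V genes in each library (blue, B-1a; orange, B-1b; circles, replicate 1; triangles, replicate 2), ordered by mean. Igkv4-91 and Igkv14-126 sit to the right in both B-1b libraries, while Iglv3, Igkv19-93, Igkv6-23, Igkv6-25, Igkv13-85 and Igkv14-100 sit to the left, and Igkv8-16 is far below the other libraries in B-1a replicate 1.

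The light chain V gene that pairs with VH12 was the most abundant V gene in B-1b cells. Igkv4-91 was at 408 and 362 FPKM in the B-1a libraries and at 1779.9 and 1280.9 FPKM in the B-1b libraries. It ranked 6 and 7 among the V genes of B-1a replicates 1 and 2 and 1 in both B-1b libraries. Its group means were 385 ± 32.4 and 1530.4 ± 353 FPKM (SD, n = 2), a log2 fold change of 1.97 (SE 0.24, limma FDR 0.175, unadjusted p 0.00112). Leaving out each library in turn gave log2 fold changes of 1.73 to 2.21. As a share of all light chain FPKM it made up 1.58 and 1.60% in B-1a cells and 9.64 and 6.14% in B-1b cells, so the groups did not overlap, and the B-1b libraries also differed from each other by more than the B-1a libraries did.

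The partner of VH11 was higher in B-1b cells as well. Igkv14-126 was at 133 and 153 FPKM in the B-1a libraries and at 297 and 319 FPKM in the B-1b libraries. The log2 fold change was 1.10 (SE 0.16, limma FDR 0.210, unadjusted p 0.00217). The gene ranked 25 and 21 in the B-1a libraries and 6 and 7 in the B-1b libraries, and it held 0.512 and 0.674% of light chain FPKM in the former and 1.61 and 1.53% in the latter. Igkv4-91 and Igkv14-126 together held 4.90 and 4.999% of the V sum in B-1a cells and 25.2 and 17.3% in B-1b cells. Of the matching heavy chain V genes, Ighv12-3 and Ighv11-2 were also higher in both B-1b libraries: Ighv12-3 was at 132 and 105 FPKM against 1068 and 551 FPKM, and Ighv11-2 at 42.8 and 48.9 FPKM against 143 and 111 FPKM. Their limma FDR values were 0.202 and 0.20. The other VH11 gene, Ighv11-1, overlapped at 2.40 and 2.35 FPKM against 1.497 and 4.61 FPKM (limma FDR 0.941). The partner in T15 antibodies showed no such separation, with Igkv7-33 at 6.28 and 4.31 FPKM in B-1a cells and 9.55 and 3.49 FPKM in B-1b cells (log2 fold change 0.15, SE 0.50, limma FDR 0.943), and its sign turned when B-1a replicate 2 or B-1b replicate 1 was left out. Its heavy chain V gene, Ighv7-1, overlapped as well, at 65.3 and 7.21 FPKM against 20.1 and 28.6 FPKM (limma FDR 0.987).

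**Figure D2:**
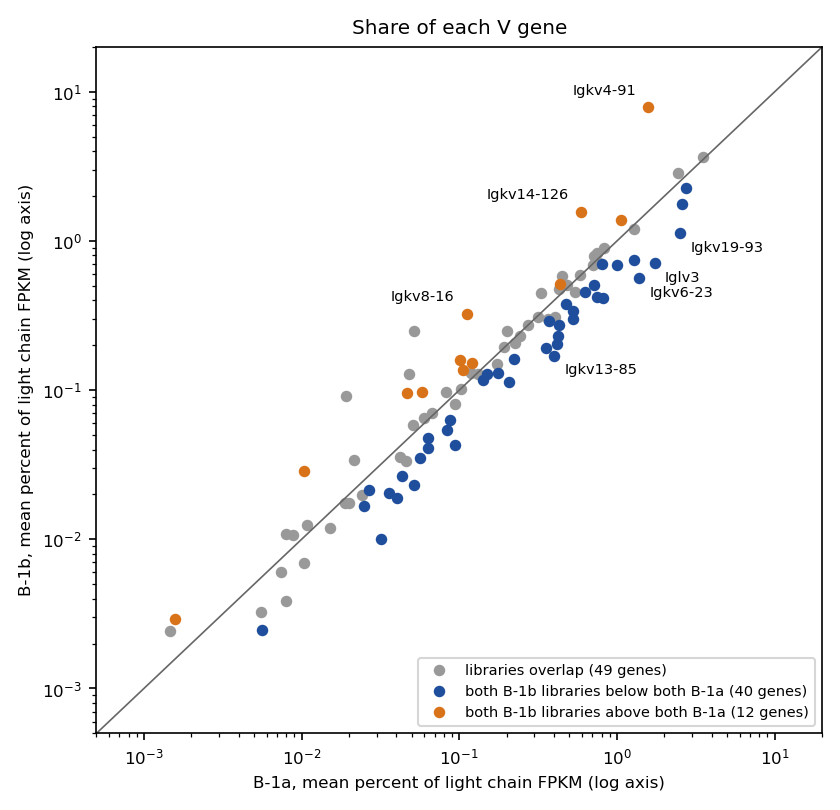
Mean share of light chain FPKM of each V gene in B-1a (x) and B-1b (y) cells, log axes, with the line of equal shares; Iglv1, near 0 in all libraries, is not drawn. Igkv4-91 (1.59 against 7.89%) lies farthest above the line among abundant genes, and 40 genes with separate libraries lie below it.

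By FPKM and as a share of all light chain FPKM, few V genes besides the pair above were higher in B-1b cells. The number depended on the setting: within the V sum without the pair it was 26 of 100, and by share it was 16 to 28 with a library left out in place of 12. By FPKM the other V genes with separate libraries were Igkv8-16, Igkv1-99, Igkv4-57-1 and Igkv4-61. Igkv8-16 was at 2.31 and 48.7 FPKM in the B-1a libraries and 61.2 and 66.7 FPKM in the B-1b libraries. Its difference rested on B-1a replicate 1, and the log2 fold change was 2.34 (SE 1.37, limma FDR 0.663) with all libraries and 0.38 without that replicate. Igkv1-99 was at 14.9 and 13.5 FPKM against 18.0 and 20.5 FPKM (log2 fold change 0.41, SE 0.17, limma FDR 0.569). Igkv4-61 was at 11.7 and 11 FPKM against 13.4 and 25.1 FPKM, and Igkv4-57-1 at 24.2 and 24.5 FPKM against 27.5 and 35.2 FPKM. By share 6 further V genes were higher, which were Igkv2-109, Igkv2-116, Igkv3-2, Igkv4-63, Igkv4-70 and Igkv8-27. Of these, Igkv8-27 was the most abundant, at 0.982 and 1.15% of light chain FPKM in B-1a and 1.21 and 1.54% in B-1b cells, and its FPKM overlapped (255 and 262 against 224 and 321).

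Genes of the Igkv1 family that led the B-1a repertoire kept high ranks in B-1b cells. Igkv1-117 was at 754 and 928 FPKM in the B-1a and 631 and 804 FPKM in the B-1b libraries, and its ranks were 2, 1, 2 and 2. Igkv1-110 was at 533 and 637 against 433 and 705 FPKM. Those 2 genes are 97.2% identical, so reads could be shared between them, and both overlapped between the groups in FPKM and in share of light chain FPKM. Within the V sum without Igkv4-91 and Igkv14-126 both were higher in both B-1b libraries, Igkv1-117 at 7.18 and 9.48% against 10.2 and 10.5%, and Igkv1-110 at 5.08 and 6.505% against 7.01 and 9.23%. Their log2 fold changes of -0.23 and -0.08 turned positive when libraries were scaled to equal light chain sums. Igkv1-135 was at 703 and 629 FPKM against 362 and 542 FPKM (log2 fold change -0.59, SE 0.26, limma FDR 0.591), lower in both B-1b libraries, but it overlapped within that smaller V sum (6.69 and 6.42% against 5.85 and 7.09%). Igkv8-24, at 282 and 337 against 211 and 261 FPKM, was also lower by FPKM, but its share overlapped.

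Lower values in B-1b cells were seen in Iglv3, Igkv14-100, Igkv19-93 and genes of the Igkv6 and Igkv13 families. Among the V genes Iglv3 had the smallest p of all, and it was at 389 and 447 FPKM in the B-1a libraries and 126 and 154 FPKM in the B-1b libraries (log2 fold change -1.57, SE 0.19, limma FDR 0.173). Igkv14-100 was at 123 and 130 FPKM against 60.4 and 56.2 FPKM (log2 fold change -1.10, SE 0.14, limma FDR 0.178), the opposite direction to Igkv14-126 of the same family. Igkv6-25 was at 112 and 91.8 FPKM against 39.1 and 41.4 FPKM (log2 fold change -1.31, SE 0.17, limma FDR 0.181). These 3 genes were named for the smallest limma p among the lower V genes, so their distance between the groups was part of that choice. Igkv6-23 was at 405 and 276 FPKM against 97.5 and 126 FPKM, with a log2 fold change of -1.59 (SE 0.27, limma FDR 0.244). Igkv13-85 was at 113 and 82.5 FPKM against 31.8 and 35.1 FPKM, with a log2 fold change of -1.502 (SE 0.21, limma FDR 0.202). Igkv19-93, the single gene of its family in the table, was at 816 and 434 FPKM against 208 and 235 FPKM, with a log2 fold change of -1.42 (SE 0.36, limma FDR 0.361). It was the most abundant V gene of B-1a replicate 1 and ranked 6 in replicate 2 and 9 in both B-1b libraries, so its B-1a libraries differed from each other by more than its B-1b libraries did.

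By family, V genes named Igkv4 and Igkv14 took a larger share of light chain FPKM in B-1b cells, and 9 families took a smaller one. The family is the first number of the gene name. Igkv4, with 26 members the largest family, held 4.70 and 4.82% of light chain FPKM in B-1a cells and 13.1 and 9.11% in B-1b cells. Without Igkv4-91 it held 3.13 and 3.22% against 3.42 and 2.97%, which overlapped. Within the family 5 genes were higher by share, 6 lower and 15 overlapped. Over all genes 50.6% were higher and 6.74% lower after division by the light chain sum. Igkv14 held 1.04 and 1.31% against 1.96 and 1.83%, and without Igkv14-126 it held 0.524 and 0.633% against 0.357 and 0.302%, now lower in B-1b cells. Within the V sum without Igkv4-91 and Igkv14-126, however, the remaining Igkv4 genes were higher in both B-1b libraries (7.72 and 7.47% against 10.2 and 8.11%), while the remaining Igkv14 genes were lower (1.29 and 1.47% against 1.07 and 0.824%).

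**Figure D3:**
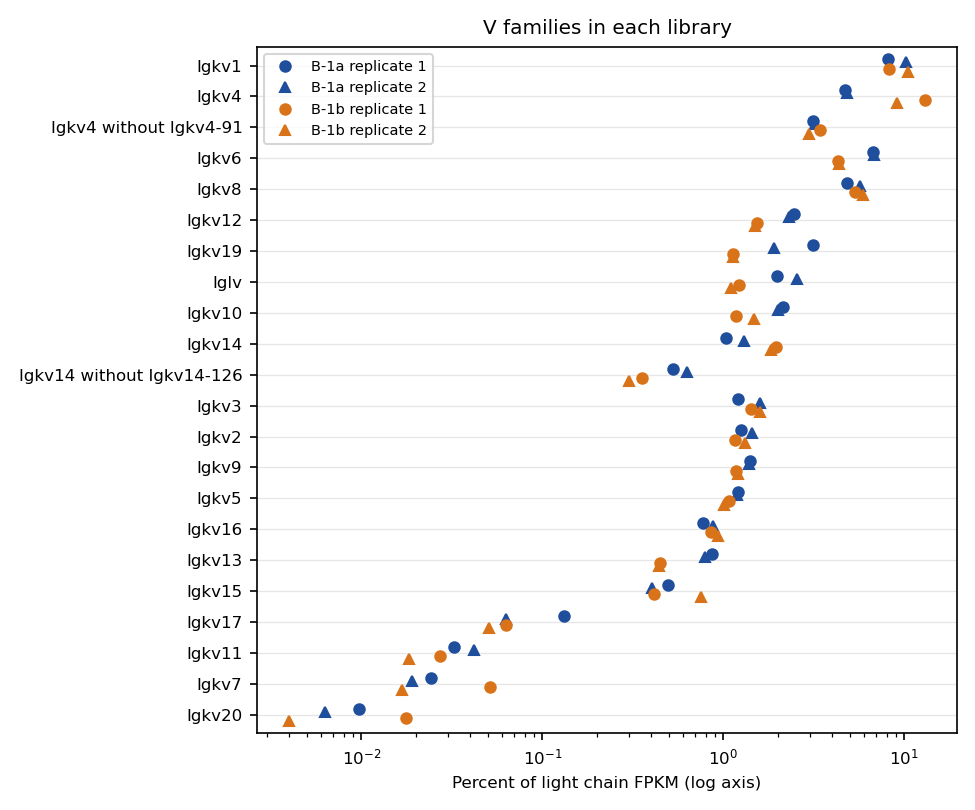
Share of light chain FPKM of each V family in each library, log axis (blue, B-1a; orange, B-1b; circles, replicate 1; triangles, replicate 2), ordered by mean. Igkv4 is to the right in B-1b cells and overlaps once Igkv4-91 is left out, and Igkv6, Igkv10, Igkv12, Igkv13, Igkv19 and Iglv are to the left.

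The families with a lower share in B-1b cells were Igkv5, Igkv6, Igkv9, Igkv10, Igkv11, Igkv12, Igkv13, Igkv19 and Iglv. Igkv6 held 6.76 and 6.78% of light chain FPKM in B-1a cells and 4.32 and 4.39% in B-1b cells, and 8 of its 9 genes were lower by FPKM and by share, where 17.3% of all genes were lower by FPKM and 6.74% after division by the light chain sum. Igkv6-15, the most abundant of them, was at 630.2 and 625 FPKM against 367 and 326 FPKM (log2 fold change -0.86, SE 0.17, limma FDR 0.266). The exception was Igkv6-13, at 125 and 111 FPKM in B-1a cells and 55.7 and 150.1 FPKM in B-1b cells. Igkv10 held 2.14 and 2.0% against 1.18 and 1.48%, with all 3 genes lower. Igkv12 held 2.45 and 2.31% against 1.54 and 1.51%, with 5 of 7 genes lower. Both Igkv13 genes were lower, at 0.865 and 0.792% together against 0.447 and 0.440%. Shares of Igkv5 (1.21 and 1.19% against 1.07 and 1.01%) and Igkv9 (1.40 and 1.39% against 1.17 and 1.21%) differed by less. Within the V sum without Igkv4-91 and Igkv14-126, Igkv6, Igkv10, Igkv12, Igkv13, Igkv19 and Iglv remained lower in both B-1b libraries, while Igkv5, Igkv9 and Igkv11 overlapped. Igkv6 then stood at 16.7 and 15.7% against 12.9 and 12% of that sum. Fewer single genes stayed lower there. Of the Igkv10 genes only Igkv10-96 did (3.36 and 2.81% against 2.05 and 2.20%), while Igkv10-94 and Igkv10-95 overlapped. Igkv6-20, Igkv6-29 and Igkv12-38 overlapped there as well.

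Shares of Igkv1, Igkv2, Igkv3, Igkv7, Igkv8, Igkv15, Igkv16, Igkv17 and Igkv20 in light chain FPKM overlapped between the groups. Of these, Igkv1, Igkv2, Igkv3, Igkv8, Igkv15 and Igkv16 were higher in both B-1b libraries within the V sum without Igkv4-91 and Igkv14-126. Igkv1, the family with the largest share in B-1a cells, held 8.18 and 10.2% of light chain FPKM in B-1a cells and 8.27 and 10.5% in B-1b cells. Within the smaller V sum it held 20.2 and 23.7% against 24.7 and 28.6%. Igkv8 held 4.84 and 5.68% against 5.33 and 5.94% of light chain FPKM, and 11.9 and 13.2% against 15.9 and 16.2% of the smaller V sum. Some genes of these families stood out in a single library. Igkv3-4 was at 12.4 and 12.6 FPKM in B-1a cells and at 84.4 and 8.55 FPKM in B-1b cells. Igkv3-7 was at 4.36 and 4.87 FPKM against 1.81 and 36.0 FPKM, and Igkv3-1 at 17.1 and 6.88 FPKM against 4.79 and 48.4 FPKM. Each of these 3 Igkv3 genes was thus high in 1 B-1b library, and none separated the groups.

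The V repertoire of B-1b cells was less even, and without Igkv4-91 it was not. The effective number of V genes, the exponential of the Shannon entropy of their shares, is the number of equally used genes that would give the same evenness. It was 46.2 and 45.5 in the B-1a libraries and 34.3 and 38.5 in the B-1b libraries (exact permutation p 0.333, the smallest possible). With Igkv4-91 left out, an alternative added after seeing the data, it was 45.4 and 44.7 against 46.6 and 43.4, which overlapped. The 10 most abundant V genes of each library held 47.7 and 48.0% of the V sum in B-1a cells and 56.6 and 54.1% in B-1b cells. Apart from Igkv4-91 and Igkv14-126, the V genes summed to 10509 and 9795 FPKM in B-1a cells and 6180.3 and 7641 FPKM in B-1b cells.

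Along the kappa locus the higher share lay in the part farthest from the J genes, where Igkv4-91 and Igkv14-126 are found. The 99 kappa V genes were placed by GENCODE M21 from 18.4 to 3166 kb upstream of Igkj1 and divided by order into 3 blocks of 33 genes. The farthest block held 20.3 and 21.4% of light chain FPKM in B-1a cells and 26.1 and 25.3% in B-1b cells. The nearest block held 13.7 and 14.8% against 11.6 and 12.5%, and the middle block 6.59 and 6.62% against 5.74 and 5.33%. Within the V sum without Igkv4-91 and Igkv14-126 the shares of each block overlapped: the farthest block was at 45.0 and 44.3% against 44.4 and 48.2%, the middle block at 16.3 and 15.4% against 17.1 and 14.5%, and the nearest block at 33.8 and 34.4% against 34.8 and 34.2%. By share of light chain FPKM, 15 genes of the farthest, 10 of the middle and 14 of the nearest block were lower in both B-1b libraries, and 5, 4 and 3 were higher. Over all genes 6.74% were lower and 50.6% higher after division by the light chain sum. Genes with lower shares of light chain FPKM thus lay along the whole locus. Within the V sum without Igkv4-91 and Igkv14-126 fewer V genes of both loci were lower, 24 in place of 40.

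Kappa V genes lie in either orientation, and those that point away from the J genes recombine by inversion. The 39 genes on the strand of Igkj held 15.2 and 17.9% of light chain FPKM in B-1a cells and 15.9 and 18.3% in B-1b cells. The 60 genes on the opposite strand, Igkv4-91 among them, held 25.4 and 24.9% against 27.6 and 24.9%. Neither share separated the groups. Without Igkv4-91 the opposite strand held 23.9 and 23.3% against 18.0 and 18.8%, lower in both B-1b libraries.

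**Figure D4:**
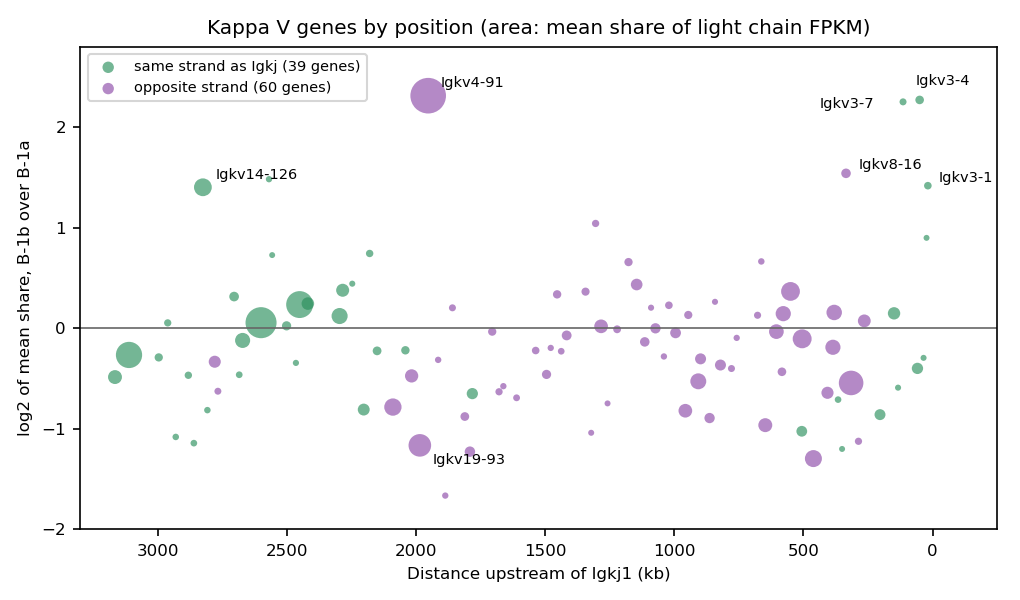
Log2 ratio of the mean share of each kappa V gene (B-1b over B-1a) against its distance upstream of Igkj1 in kb, with area proportional to an offset plus the mean share and colour for the strand relative to Igkj. Igkv4-91 and Igkv14-126 stand above the line at 1953 and 2826 kb, Igkv19-93 lies close to Igkv4-91 but below the line, and no stretch of the locus holds only higher genes.

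Among lambda genes, Iglv3, Iglv2 and the Iglc genes were lower in both B-1b libraries, whereas Iglj3p was higher and Iglv1 and Iglj3 overlapped. The table holds 3 lambda V genes on chromosome 16. Iglv3 (chr16:19241207-19241690, minus strand) held 1.5 and 1.97% of light chain FPKM in B-1a cells and 0.681 and 0.740% in B-1b cells. Iglv2 was at 127 and 136 FPKM in B-1a cells and 99.7 and 76.2 FPKM in B-1b cells (log2 fold change -0.59, SE 0.19, limma FDR 0.477), and its share overlapped. The last 60 coding bases of Iglv1 and Iglv2 are shown because the genes are 96.9% identical and yet were listed at very different levels, with Iglv1 at 0.00304 FPKM or less in every library.
Iglv1: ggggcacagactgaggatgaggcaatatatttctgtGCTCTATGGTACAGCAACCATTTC
Iglv2: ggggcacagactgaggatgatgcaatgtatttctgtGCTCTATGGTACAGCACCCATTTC
How reads that fit both were assigned is not given in the sources used here, so the level of each is uncertain. Together the Iglv genes held 4.67 and 5.65% of the V sum in B-1a cells and 2.73 and 2.49% in B-1b cells.

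The lambda constant regions were each lower in both B-1b libraries. Iglc2 was at 1155 and 1269 FPKM in B-1a cells and 803 and 1046 FPKM in B-1b cells (log2 fold change -0.40, SE 0.23, limma FDR 0.653). Iglc3 was at 1219 and 1081 FPKM against 686 and 814 FPKM (log2 fold change -0.62, SE 0.20, limma FDR 0.477). Iglc2 and Iglc3 are 96.2% identical over their coding bases, so the division between them is uncertain, and both were lower in each B-1b library. Iglc1 was at 44.7 and 35.3 FPKM against 24.2 and 28.5 FPKM, and Iglc4 at 3.89 and 4.59 FPKM against 3.07 and 1.74 FPKM. Summed, the Iglc genes made up 17.9 and 20.96% of constant region FPKM in B-1a cells and 16.5 and 17.5% in B-1b cells, a difference of -2.48 percentage points between the means (exact permutation p 0.333, the smallest possible). The ratio of Iglv to Iglc FPKM was 0.213 and 0.244 in B-1a and 0.149 and 0.122 in B-1b cells, while the ratio of Igkv to Igkc FPKM was 0.948 and 1.08 against 1.04 and 1.01 and overlapped.

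The kappa constant region was the most abundant member, and its share did not separate the groups. Igkc (chr6:70726435-70726966, plus strand) was at 11118 and 9009 FPKM in B-1a cells and 7702 and 8943 FPKM in B-1b cells. The log2 fold change was -0.27 (SE 0.31, limma FDR 0.790), and it was 0.04 with libraries scaled to equal light chain sums. As a share of light chain FPKM, Igkc was at 42.9 and 39.7% against 41.7 and 42.9%, which overlapped.

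Of the kappa J genes Igkj3, which is known as nonfunctional in the mouse, was higher in B-1b cells at a low level. The J genes are shown whole, because they are 38 or 39 bases long and differ in the motif that encodes the conserved turn after the junction. Capitals mark matches on the coding strand to the letters TTCGG, the first part of that motif.
Igkj1: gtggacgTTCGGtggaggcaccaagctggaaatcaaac
Igkj2: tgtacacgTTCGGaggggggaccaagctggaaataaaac
Igkj3: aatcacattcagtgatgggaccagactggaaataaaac
Igkj4: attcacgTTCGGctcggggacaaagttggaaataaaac
Igkj5: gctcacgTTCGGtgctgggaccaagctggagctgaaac
Iglj3: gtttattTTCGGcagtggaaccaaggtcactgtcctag
Iglj3p: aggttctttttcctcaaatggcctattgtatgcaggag
The letters were found in 5 of the 7 J genes on the coding strand and in 0 on the opposite strand, and Igkj3 and Iglj3p had no match. Because of their short length, the levels and shares of J genes are uncertain. By these values Igkj1 was the most abundant, at 533 and 485 FPKM in B-1a cells and 413 and 385 FPKM in B-1b cells (log2 fold change -0.35, SE 0.16, limma FDR 0.601). Igkj5 was at 311 and 337 FPKM against 338 and 259 FPKM, and Igkj4 at 222 and 168 FPKM against 207 and 109.9 FPKM, so both overlapped. Igkj2 was at 2.67 and 1.06 FPKM against 0.632 and 0.821 FPKM. Igkj3 was at 7.22 and 4.43 FPKM in B-1a cells and 17.8 and 16.4 FPKM in B-1b cells, with a log2 fold change of 1.44 (SE 0.27, limma FDR 0.265, unadjusted p 0.00578). It made up 0.542 and 0.443% of J FPKM in B-1a cells and 1.80 and 2.10% in B-1b cells.

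Lambda J genes were irregular between libraries. Iglj3 was at 252 FPKM in B-1a replicate 1 and at 0.181 FPKM or less in the other 3 libraries, and it did not pass the filter. Iglj3p, annotated beside it and 50% identical to it, was at 3.41 and 5.21 FPKM in B-1a cells and 12.9 and 9.39 FPKM in B-1b cells (log2 fold change 1.20, SE 0.29, limma FDR 0.356). By share of J FPKM, Igkj3 and Iglj3p were higher and Igkj2 lower in both B-1b libraries, while the other 4 J genes overlapped.

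**Figure D5:**
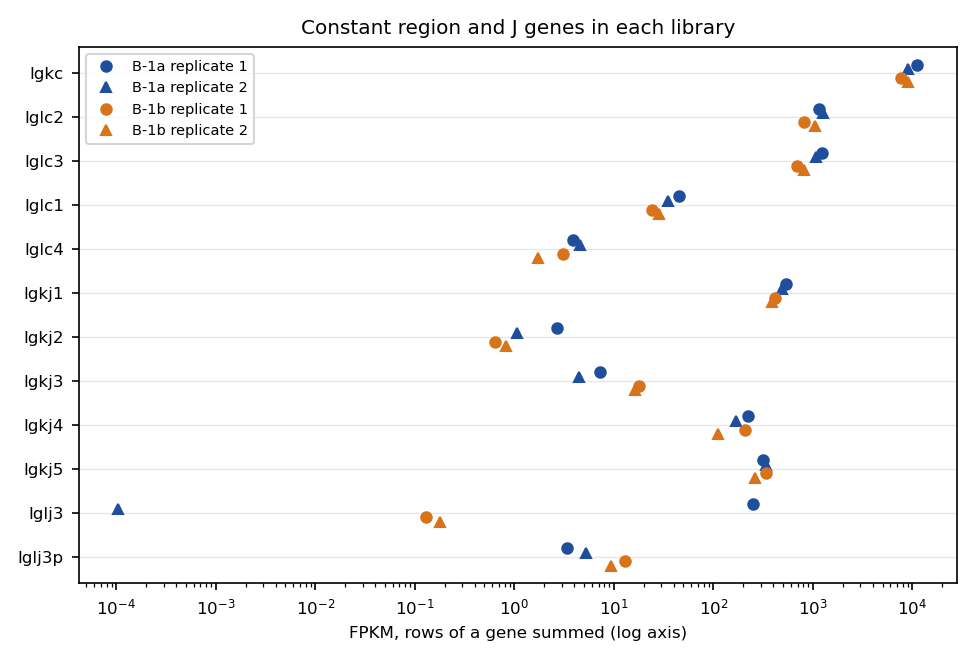
FPKM on a log axis of the constant region and J genes in each library (blue, B-1a; orange, B-1b; circles, replicate 1; triangles, replicate 2). Igkc and the Iglc genes are slightly lower in B-1b cells, Igkj3 and Iglj3p are higher, and Iglj3 is at 252 FPKM in B-1a replicate 1 alone.

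Members outside the filter were Igkv11-114, Igkv3-2, Igkv4-62, Iglj3 and Iglv1. GENCODE annotates 5 of the V genes in the table as pseudogenes, which are Igkv11-114, Igkv12-40, Igkv2-116, Igkv4-60 and Igkv4-77. The most abundant of them was Igkv4-77, at 16.8 and 10.9 FPKM in B-1a cells and 5.32 and 8.58 FPKM in B-1b cells. Several rows were listed for 22 members, and in Igkv6-29, Igkv12-98 and Igkv3-7 the larger row of B-1b replicate 2 was the smaller one in the other 3 libraries. In Igkv6-29 the first row was at 44.0, 38.8, 25.4 and 0.452 FPKM in B-1a replicates 1 and 2 and B-1b replicates 1 and 2, and the second at 1.39, 1.24, 0.847 and 24.2 FPKM. The sum of 45.4 and 40.0 FPKM against 26.2 and 24.6 FPKM was steady in B-1b cells, whereas each row taken alone was not. In Igkv12-98 the first row was at 0, 0, 0 and 13.9 FPKM and the second at 49.6, 35.9, 39.2 and 4.15 FPKM. In Igkv3-7 the second row, at 0.0301 FPKM or less in the other libraries, gave 22.8 of the 36.0 FPKM of B-1b replicate 2.

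Genes that make, assemble or pair with light chains were counted from lists. Of a list of 4 genes named for the surrogate light chain, which stands in for a light chain in precursor B cells, 1 was in the table. Igll1, Vpreb1 and Vpreb2, which encode that chain, were not. The gene present was Vpreb3, which is not a part of that chain. It was at 11.5 and 18.3 FPKM in B-1a cells and 4.29 and 5.79 FPKM in B-1b cells (log2 fold change -1.37, SE 0.31, limma FDR 0.319). Of 5 receptor partners 1 passed the test, as did 0.198% of all genes: Ighm, with the values given above (log2 fold change 6.20, SE 0.17, limma FDR 0.0106). Cd79a, which signals with the receptor, was at 2082 and 2219 FPKM against 1384 and 1646 FPKM (limma FDR 0.569), and Cd79b at 1093 and 1077 FPKM against 1473 and 1213 FPKM (limma FDR 0.697). With limma 0 of 15 genes that regulate light chain transcription had an FDR below 0.05, and 1 had an unadjusted p below 0.05 (9.66% of all genes did), with 5 fold changes above 0 and 10 below. Likewise 0 of 15 tested genes of chain folding and assembly passed, and 2 had an unadjusted p below 0.05, beside the same 9.66%. For these folding genes 13 fold changes were above 0 and 2 below, with a median log2 fold change of 0.40 beside 0.05 over all genes, and 8 were higher in both B-1b libraries, where 25.8% of all genes were. Of 14 rearrangement genes, 5 were in the table and 0 had an FDR or an unadjusted limma p below 0.05.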

How the data were processed

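RNA from PerC B-1a and B-1b cells was sequenced after poly-A capture. Per the labels and methods, the authors used HISAT2 for alignment (GRCm38/mm10) and StringTie for quantification and assembly, with no version, annotation release or row filter given in the sources used here. The deposited numbers were taken as FPKM of transcripts. That unit is inferred, because the table states none and its numbers are fractional, so no count test was run and sequencing depth is unknown. There were 0 further columns of sample values. Columns of replicate 3 were left out because they derive from the others (in 13722 and 13710 of 13747 rows for B-1b and B-1a, the latter within a relative tolerance of 1e-06 plus an absolute one of 2e-06 FPKM).

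Rows of a gene name were summed. The limma test (version 3.58.1, R 4.3.3, trended prior, Benjamini-Hochberg adjustment) compared B-1b with B-1a in log2(FPKM + 1) over the 7557 genes that reached 1 FPKM in 2 or more of the 4 libraries. The pseudocount makes fold changes of low genes smaller. The fit was tested on simulated data with 200 changed genes. Shares, families, the effective number of V genes and figures were computed with Python 3.11.15 (pandas 2.3.3, numpy 2.4.6, matplotlib 3.10.9), and single values were compared with exact two-sided permutation tests. Coordinates and sequences come from GENCODE M21 (GRCm38), in which all 114 members and 7830 of 7834 names matched.

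The members and lists were chosen with earlier results of these data known. By rule the text names all J and constant region genes, the Iglv genes, the 10 V genes of largest mean share, in each direction the 3 V genes of smallest limma p and the 3 of largest fold change (with a group mean of 10 FPKM or more), the partners of VH11, VH12 and VHS107, families with separate groups, partner genes with an FDR below 0.05, and Ighm, Cd79a, Cd79b and Vpreb3. Igkv6-13, Igkv6-20, Igkv6-29, Igkv10-94, Igkv10-95, Igkv10-96, Igkv12-38, Igkv3-1, Igkv3-4, Igkv3-7, Igkv4-77, Igkv4-57-1, Igkv4-61, the V genes higher by share alone, the members outside the filter, the pseudogenes, Cd5, the named markers of macrophages and of plasma, B-1 and B-2 cells, Igkv12-98 and the heavy chain V genes are named outside that rule, after their values were seen. Alternatives were other filters, pseudocounts, scalings and denominators, a fit with the replicate number as a block, all 6 columns, and each library left out in turn.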

Additional observations from a re-analysis of the deposited data

How the results depend on the processing

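The count of 0 light chain genes with an FDR below 0.05 was also 0 without a filter, with a pseudocount of 0.1, under both rescalings, with the mean of B-1b replicates 1 and 3 and with transcript rows kept apart (6 of 12137 rows passed there). In the fits without each library in turn, with no sharing of the spread or with a replicate block, 0 of all 7557 genes passed, so their counts of 0 light chain genes and 0 partner genes (in place of 1) say nothing of stability. The count was 48 (5 higher, 43 lower, beside 16.7% of all genes) with all 6 columns, which count derived values as libraries, and partner genes past the FDR then numbered 7 in place of 1. Replicates with the same number did not deviate together (r = 0.00124 across 7557 genes, which are not independent replicates). With 2 libraries per group this cannot decide whether libraries of the same number shared animals or a sort, which the labels do not give. With the replicate number as a block 0 light chain genes and 0 partner genes had an FDR below 0.05, and 31 light chain genes had an unadjusted p below 0.05 in place of 38. The median log2 fold change of light chain genes, -0.49, was -0.58 with a pseudocount of 0.1, -0.55 to -0.42 with a library left out and -0.22 with libraries scaled to equal light chain sums, which moved the median of all genes to 0.33. Leaving out a library gave 16 to 28 V genes higher by share in place of 12, 3 to 6 families higher in place of 2, and 4 to 6 J genes with separate groups in place of 3, since 1 library is more easily separated. Without B-1a replicate 1 the unadjusted calls among light chain genes fell to 18. With the V sum without Igkv4-91 and Igkv14-126 as denominator, chosen after seeing the data, 28 V genes were higher, 24 were lower and 8 families were higher. These counts include Igkv4-91, Igkv14-126 and the whole Igkv14 family, and without both genes 26 V genes and 7 families were higher and 24 and 7 lower. With that denominator the differences of Igkv5 (0.12 percentage points), Igkv9 (0.056), the nearest kappa block (0.37) and the middle kappa block (0.040) turned positive. At a minimum of 10 FPKM no Igkv11 gene was left, and its share was 0. The effective number of V genes differed by -0.041 without Igkv4-91 in place of -9.47, and the summed V genes as denominator gave no separate value for it, since the denominator cancels. The signs of the fold changes of Igkc, Igkj4, Igkj5, Igkv1-110, Igkv1-117, Igkv7-33 and Igkv8-27 depended on at least 1 setting. With 2 libraries per group and unknown depth, the precision is limited.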
